A study of Mus musculus with 2 samples.

Results

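Intergenic open sites just upstream of genes were examined in DNase-seq of mouse frontal cortex. A site was a peak whose centre lay outside every gene body of GENCODE M21, over 1 kb from every transcript start, and 1 to 10 kb upstream of the start of a protein-coding gene on an autosome. Replicate 1 held 4481 such sites among 101790 autosomal peaks (104654 peaks in all), and replicate 2 held 3272 among 79516 (81654 in all). They made up 4.40% and 4.11% of the autosomal peaks. DNase-seq cuts accessible DNA in nuclei with the nuclease DNase I and sequences the cut ends, so a peak marks DNA that is open in at least some cells of the tissue. Both libraries came from frontal cortex of female B6CASTF1/J mice, an F1 of the B6 and CAST strains, at an age of 10 days, untreated as far as the labels say. The labels number them as biological replicates of 1 group and give both the same donor entry and the mark "3x", which no source used here explains. There is no second condition, so values are given per library with the spread between the libraries, which may in part be technical. In whole tissue, a site open in few cells and a site weakly open in many cells cannot be told apart.

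Sequence just upstream of a gene lies beyond the promoter, where RNA polymerase assembles, and can hold proximal enhancers, start sites missing from the annotation and boundary elements. Enhancers bind transcription factors that recognise short motifs, and a factor sitting on DNA shields it from the nuclease and leaves a short protected stretch called a footprint. CTCF, a zinc-finger protein that holds the bases of chromatin loops together with cohesin, binds a long motif at many such elements. Closeness to a gene does not show which gene a site acts on.

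A few of the sites are shown by their sequence, 1 line each, because they carry, under a footprint in both libraries, the motifs that the results turn on, or had the highest mean signal of the libraries among sites paired 1 to 1. The letters are those of the reference genome (GRCm38.p6, the same chromosomes as mm10), plus strand, 5′ to 3′, and not reads of these mice. Capitals mark the motif match. The site 9.17 kb upstream of Znfx1 (chr2:167072081-167072280, gene on the minus strand) holds 2 matches to the CTCF motif and had the highest mean of the libraries among paired sites with that motif under a footprint in both, with a peak signal of 5.40 in replicate 1 and 7.75 in replicate 2.
Znfx1: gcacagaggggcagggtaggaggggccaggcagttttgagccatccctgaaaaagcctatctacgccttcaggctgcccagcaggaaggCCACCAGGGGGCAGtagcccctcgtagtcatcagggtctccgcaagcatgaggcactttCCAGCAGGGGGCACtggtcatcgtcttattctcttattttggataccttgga

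The next sites carry a cAMP response element (CRE), a site of the nuclear factor I family (NFI) with both arms, an AP-1 site and a proneural E-box. The CRE site lies 3.60 kb upstream of Sema3b, which encodes a secreted semaphorin (chr9:107612721-107612940, signal 9.10 and 9.32). The NFI site lies 2.21 kb upstream of Plcb2, a phospholipase C gene (chr2:118730561-118730740, signal 1.75 and 2.72). Gclc, which encodes the catalytic subunit of the enzyme that starts glutathione synthesis, has the AP-1 site 3.78 kb upstream (chr9:77750601-77750900, signal 5.84 and 6.55). The E-box lies 1.02 kb upstream of Foxo3, a forkhead transcription factor gene (chr10:42277621-42277920, signal 8.48 and 9.81).
Sema3b: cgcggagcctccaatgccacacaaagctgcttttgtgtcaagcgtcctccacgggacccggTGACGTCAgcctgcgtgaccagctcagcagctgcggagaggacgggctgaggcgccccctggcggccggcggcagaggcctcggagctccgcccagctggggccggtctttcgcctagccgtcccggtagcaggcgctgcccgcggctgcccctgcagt
Plcb2: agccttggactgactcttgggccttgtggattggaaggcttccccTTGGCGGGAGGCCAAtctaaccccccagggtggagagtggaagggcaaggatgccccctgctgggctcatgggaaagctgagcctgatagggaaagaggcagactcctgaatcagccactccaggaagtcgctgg
Gclc: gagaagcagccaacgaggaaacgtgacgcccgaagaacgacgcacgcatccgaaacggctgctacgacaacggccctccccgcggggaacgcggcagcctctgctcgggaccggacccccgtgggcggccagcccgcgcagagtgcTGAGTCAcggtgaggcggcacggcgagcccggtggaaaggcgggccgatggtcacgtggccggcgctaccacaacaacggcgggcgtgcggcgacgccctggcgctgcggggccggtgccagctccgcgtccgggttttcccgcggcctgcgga
Foxo3: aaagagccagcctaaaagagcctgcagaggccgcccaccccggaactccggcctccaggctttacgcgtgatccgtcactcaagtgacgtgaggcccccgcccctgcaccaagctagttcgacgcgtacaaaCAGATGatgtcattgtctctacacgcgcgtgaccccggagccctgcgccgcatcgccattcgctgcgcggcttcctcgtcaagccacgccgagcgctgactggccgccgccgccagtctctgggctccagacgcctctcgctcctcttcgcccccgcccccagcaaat

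By the mean of the libraries, the strongest paired sites lay upstream of Ptma, which encodes the nuclear protein prothymosin alpha, and of Kcnn1, which encodes a small-conductance calcium-activated potassium channel. The Ptma site (chr1:86525281-86525520) is shown whole and had no match to any motif searched in its 200 bp window. Of the wider Kcnn1 peak the middle 300 bases are shown (chr8:70865571-70865870), with an EGR match, a pair of NRF1 matches that overlap on opposite strands, and an SP/KLF match on the minus strand, in this order. Only matches to these 3 motifs in the central 200 bp are in capitals there, and motifs outside it were not marked.
Ptma: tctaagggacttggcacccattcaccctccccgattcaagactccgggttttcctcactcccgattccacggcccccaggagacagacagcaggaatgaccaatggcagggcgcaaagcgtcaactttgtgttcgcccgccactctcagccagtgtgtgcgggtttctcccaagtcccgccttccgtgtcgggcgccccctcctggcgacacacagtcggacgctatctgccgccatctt
Kcnn1: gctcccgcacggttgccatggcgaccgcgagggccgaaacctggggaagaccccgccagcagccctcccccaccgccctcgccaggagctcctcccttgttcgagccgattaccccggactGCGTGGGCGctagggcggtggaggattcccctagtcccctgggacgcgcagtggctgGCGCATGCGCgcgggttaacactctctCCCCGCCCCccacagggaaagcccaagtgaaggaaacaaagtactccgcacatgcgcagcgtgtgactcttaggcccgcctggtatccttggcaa

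Upstream sites were of middling strength among all open sites, with somewhat fewer weak ones. Peak signal, the value the authors deposited for each peak, had a median of 0.677 in replicate 1 and 1.08 in replicate 2 at these sites. The middle 50% of sites ran from 0.411 to 1.24 and from 0.677 to 1.88, and the highest reached 11.5 and 14.04. Peaks within 1 kb of a transcript start had higher medians, 1.02 and 1.43. Intergenic peaks 1 to 10 kb downstream of a coding gene, and not upstream of one by the same rule, came close, with 0.656 and 0.947. Intronic peaks had 0.531 and 0.756 and the remaining intergenic peaks 0.438 and 0.620. This order of the classes was the same in both libraries, although the scale of the signal differed between them. When all autosomal peaks of a library were divided into signal quintiles, 20.7% and 20.3% of the upstream sites fell in the highest and 16.5% and 13.3% in the lowest. A quintile holds 1 of 5 about equal parts of all peaks. The share in the highest was therefore near that of all peaks, and the share in the lowest was below it. Their median width was 185 and 183 bp.

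**Figure D1:**
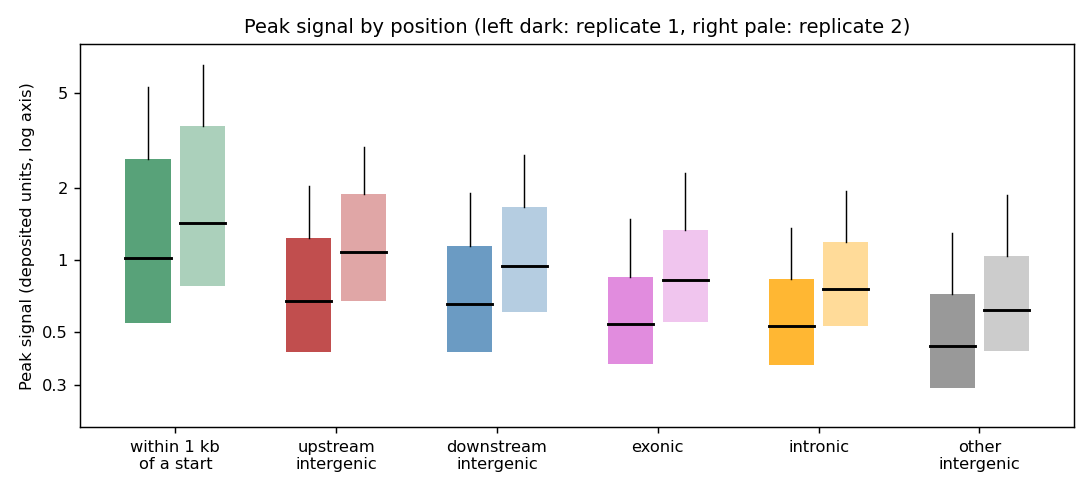
Peak signal (vertical axis, deposited units, log scale) of autosomal peaks by position, with replicate 1 in dark and replicate 2 in pale boxes. Boxes span the lower to the upper quartile, black bars are medians and thin lines reach the 90th percentile. The upstream sites, with medians of 0.677 and 1.08, sit below the peaks at transcript starts and above the other intergenic peaks.

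The 10 strongest sites were taken by the mean signal of both libraries among sites paired 1 to 1, so that the library with the higher scale weighs more, and a library's own order differs from it. The Ptma site, 1.33 kb upstream, gave 11.5 in replicate 1 and 14.04 in replicate 2, above the 8.49 and 10.4 of the peak at the Ptma promoter. Kcnn1 had 11.0 and 13.1 at 2.46 kb, against 1.78 and 2.35 at its promoter. At both genes the upstream site was therefore the higher of the pair in both libraries. Trappc9, which encodes a subunit of a membrane trafficking complex, had 9.78 and 11.4 at 6.44 kb. Cirbp, the gene of a cold-inducible RNA-binding protein, had 8.99 and 11.3 at 6.03 kb. Pllp encodes plasmolipin, a membrane protein of myelin, and its site at 7.88 kb had 8.14 and 10.7. The closest start in GENCODE M21 to the Pllp site was that of a small noncoding RNA gene, Gm22846, at 5.88 kb. The closest to the Sema3b site was that of Gnai2 at 3.22 kb. Genes missing from this annotation were not searched for, so a site may lie on or near one. The other sites among the 10 strongest were those of Foxo3 and Sema3b, shown above, and of Txn2 (6.25 and 11.9), Cpeb4 (8.58 and 9.17) and Tle2 (8.20 and 9.43). Txn2, which encodes the mitochondrial thioredoxin, differed most between the libraries among these 10. Over the sites of the whole set, the closest transcript start belonged to a gene whose window held the site for 3699 sites (82.5%) in replicate 1 and 2722 (83.2%) in replicate 2.

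Sites were densest next to the gene and thinned out with distance. Sequence that meets the rule covered 103.7 Mb, or 4.21% of the autosomes. In replicate 1 the density was 71.0 sites per Mb between 1 and 2 kb upstream, 49.2 between 2 and 3 kb and 34.8 between 9 and 10 kb. In replicate 2 the matching densities were 50.5, 33.2 and 25.1. The 977 and 695 sites of the first bin were about as strong as the rest, with a median signal of 0.635 and 1.04 against 0.688 and 1.08 at 2 to 10 kb. Over the whole window the density was 43.2 and 31.6 sites per Mb, close to the 41.3 and 32.3 peaks per Mb of all autosomal sequence. The window of 1 to 10 kb downstream of genes had 45.7 and 35.7. It is not an exact mirror: sequence that is also upstream of a coding gene was counted as upstream only, which left 74.2 Mb downstream. A higher density upstream than downstream was seen in the first bin in both libraries, with downstream values of 54.1 and 36.1, and downstream bins were the higher from 3 kb outward in both.

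**Figure D2:**
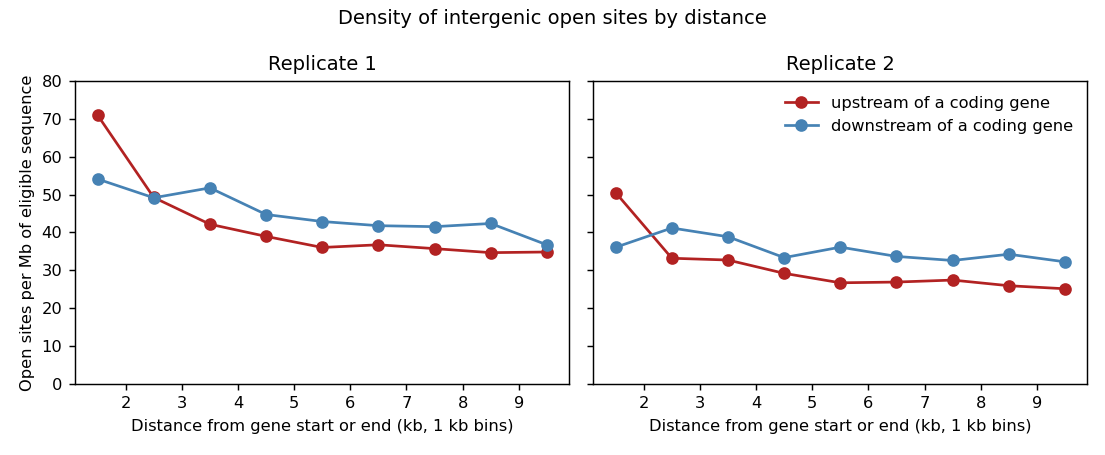
Open sites per Mb of eligible intergenic sequence (vertical axis) in 1 kb bins of distance (horizontal axis) upstream of gene starts, in red, and downstream of gene ends, in blue, for each replicate. The upstream density falls from 71.0 and 50.5 in the first bin to 34.8 and 25.1 in the last.

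The limits of the window cut through a continuous series of peaks. Just outside the near limit, 392 and 260 peaks lay 0.8 to 1 kb upstream, with a median signal of 0.583 and 0.868. Just inside, 268 and 203 sites at 1 to 1.2 kb had 0.688 and 1.17. At the far limit, the 62 and 40 sites at 9.8 to 10 kb had 0.573 and 0.959, and the 58 and 47 peaks at 10 to 10.2 kb had 0.664 and 0.925. Many of the windows also border other genes: 1176 sites (26.2%) in replicate 1 and 826 (25.2%) in replicate 2 lay 1 to 10 kb downstream of a coding gene as well.

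Most upstream sites, like most peaks of every other class, were found in both libraries, and nearly all of the strong ones were. An overlap of at least 1 bp with any peak of the other library held for 2846 sites (63.5%) of replicate 1 and 2858 (87.3%) of replicate 2, the library with fewer peaks. Asking for an overlap of 50% of both peaks left 54.9% and 75.2%. Shared sites had a median signal of 1.02 in replicate 1, against 0.396 for sites seen there only, and of 1.22 against 0.507 in replicate 2. In the lowest signal quintile 15.2% of the replicate 1 sites and 55.1% of the replicate 2 sites were shared, and in the highest 99.1% and 100%. At like signal, the remaining intergenic peaks of replicate 1 were shared more often than the upstream sites in each of the lower 4 quintiles, at 29.7% against 15.2% in the lowest and 77.0% against 61.2% in the third. In replicate 2 the lowest quintile was near even, with 54.1% of other intergenic peaks and 55.1% of upstream sites, and the next ones went the same way as in replicate 1, with 80.3% against 76.9% in the second and 94.7% against 88.1% in the third.

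**Figure D3:**
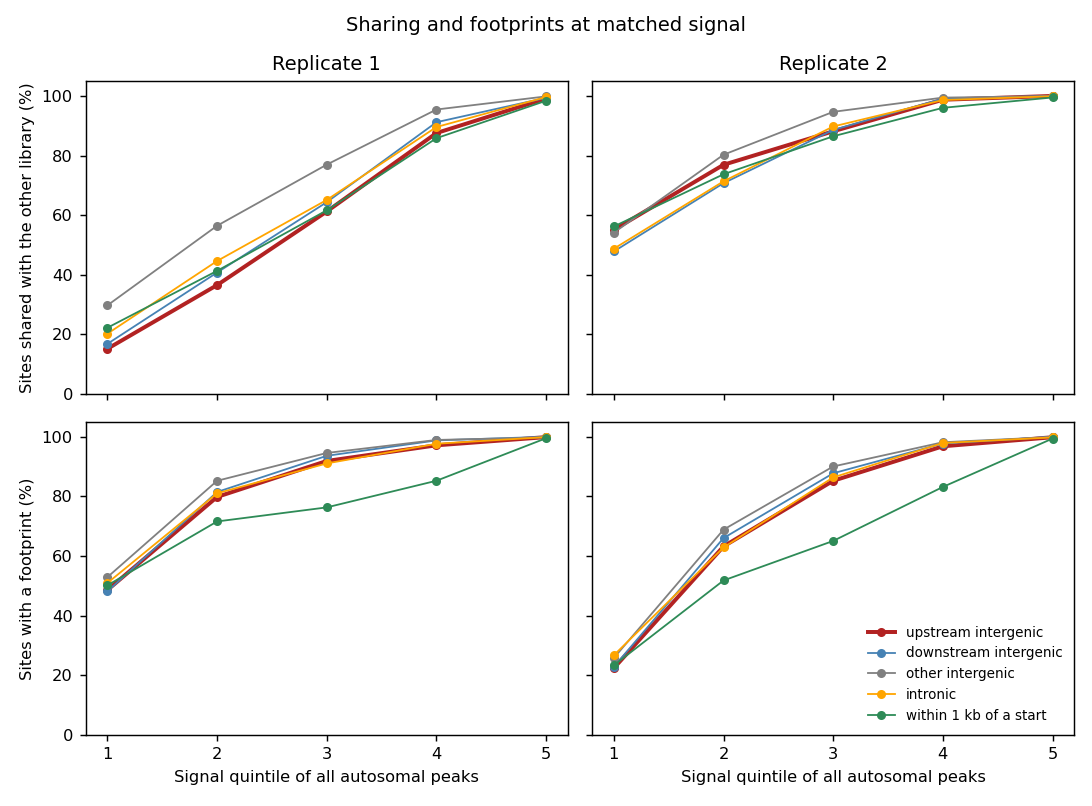
Share of peaks that overlap a peak of the other library (upper panels, %) and share with at least 1 footprint (lower panels, %) by signal quintile of all autosomal peaks of the library, quintile 5 being the strongest. Upstream sites are the thick red line, which climbs from 15.2% to 99.1% for sharing in replicate 1 and from 55.1% to 100% in replicate 2.

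For 2708 pairs, 1 upstream site of each library overlapped a single site of the other. Their median signals were 1.04 and 1.25, and the log2 difference of replicate 1 minus replicate 2 was -0.29 at the median, with an SD of 0.31 over pairs. The log2 signals had a Pearson correlation of 0.952 and the ranks a Spearman correlation of 0.947 across these pairs, which come from the same libraries and are not independent replicates. Over 59515 pairs of all classes the Pearson value was 0.968 and the median difference -0.25. So upstream sites ranked alike in both libraries once found in both.

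Sites of 1 library were mostly weak, with a few exceptions chosen here after their values were seen. The strongest site of replicate 1 without a peak in replicate 2 had a signal of 3.34 and lay 5.11 kb upstream of Zfp692. Next came a site of 2.80 at 4.36 kb upstream of Aurkb and one of 1.87 at 1.28 kb upstream of Dlx2, a homeobox gene of inhibitory neuron progenitors, which holds a CTCF match. In replicate 2 the strongest such sites were those of Cacna1i (1.73), Kdm6b (1.64) and Bcan (1.53). The authors' deposited table of the false discovery rate (FDR) of the local cut rate lists bases up to 0.05. All 4481 and 3272 upstream sites had a base listed in their own library's table. All 2846 and 2858 shared sites also had one in the other library's table. Listing thus went with the peak calls and is not a separate check of them. Of the 1635 sites of replicate 1 that were not shared, 141 (8.62%) had any base listed in the table of replicate 2, and of the 414 of replicate 2, 83 (20.05%) had one in the table of replicate 1. In their own library's table, 81.0% and 81.8% of upstream sites reached an FDR of 0.01 and 62.1% and 64.2% reached 0.001. Peaks downstream of genes were close, with 81.2% and 81.4% at 0.01 and 62.6% and 60.3% at 0.001.

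Footprints were present at most sites. At least 1 overlapped 3834 sites (85.6%) of replicate 1 and 2603 (79.6%) of replicate 2, with a mean of 2.31 and 2.03 per site and a maximum of 14 and 11. None was found at 647 sites (14.4%) and 669 sites (20.4%), and 4 or more at 964 (21.5%) and 572 (17.5%). The share with a footprint was 79.1% and 64.3% at other intergenic peaks, 82.2% and 71.1% at intronic peaks, 86.2% and 78.1% downstream of genes and 84.7% and 76.7% at transcript starts. Signal moved with the footprint calls: sites with a footprint had a median of 0.776 and 1.32, those without 0.302 and 0.485, and in the lowest quintile 48.6% and 22.4% had one against 99.9% and 99.8% in the highest. At like signal the upstream sites did not stand above the other intergenic peaks, of which 52.9% had a footprint in the lowest quintile of replicate 1 against 48.6% of upstream sites.

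Of all footprints that touch an upstream site, 10276 in replicate 1 and 6588 in replicate 2, 41.0% and 66.2% overlapped a footprint of the other library. Footprints were thus less often found again than the sites that hold them. The same 1 bp rule is harder for footprints to meet, at a median width of 11 and 10 bp against 185 and 183 bp for sites. Footprints in sites without a peak in the other library are included. The most footprints by the mean of the libraries lay in a site 1.20 kb upstream of Hivep2, a zinc-finger gene, with 13 in replicate 1 and 7 in replicate 2. The Kcnn1 site had 9 and 10, which made it the richest of replicate 2 among the 5 named. Mpzl1, which encodes an adhesion-related membrane protein, had 12 and 6 at 7.94 kb. Asxl3, of the additional sex combs-like family of chromatin regulators, had 8 and 9 at 1.02 kb, and Bicra, a chromatin remodelling subunit gene, had 9 and 7 at 5.02 kb. These sites were wide (320 to 620 bp in replicate 1), which gives more room for footprints than the median site has.

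By base composition the sites, like the other peak classes away from transcript starts, stood between promoters and closed DNA. In windows of 200 bp around the peak centre the median GC content was 52.5% in both libraries, against 43.5% in 493633 windows of the same upstream sequence without a peak in either library. Peaks at transcript starts had 61.5% and 62.5%, and other intergenic peaks 51.0% and 50.5%. Downstream peaks had 52.5% and 52.0%, and intronic peaks 52.0% in both libraries. The windows held a mean of 4.79 and 5.05 CpG dinucleotides, against 1.66 in closed windows. Mostly repetitive windows, with at least 50% of bases soft-masked, made up 6.23% and 3.85% of the sites and 35.0% of closed windows. The repetitive sites were shared less, at 35.5% and 74.6%.

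Of the 16 motifs searched, CTCF showed the highest ratio between upstream sites and closed upstream windows. The motif was searched as a degenerate core of 14 letters, exact on either strand, and matched 351 sites (7.83%) of replicate 1 and 312 (9.54%) of replicate 2. In closed upstream windows it matched 121, or 0.0245%. Other intergenic peaks had it in 4.65% and 5.36%, peaks at transcript starts in 1.40% and 1.53%, and downstream peaks in 10.3% and 11.8%, so the sites on both sides of genes were the richer ones. Of the matches in upstream sites, 97.5% and 89.5% lay under a footprint, by a cover of at least 0.5 of the match, and 279 of the 353 matches of replicate 1 did so in both libraries. Sites with a match had a median signal of 1.28 and 1.68, against 0.646 and 1.03 without, and 87.2% and 98.7% of them were shared. Matches lay on the strand of the gene in 53.5% and 54.8% of cases. By distance they were scarcest close to the gene, at 4.81% and 6.19% of sites between 1 and 2 kb and 9.13% and 10.7% between 4 and 7 kb.

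Other motifs, searched as exact letters on both strands in the same windows, fell into distinct groups. GC-rich promoter-type motifs were more frequent in upstream sites than in closed windows. The SP/KLF motif GGGGCGGGG matched 2.72% and 2.60% of sites and 0.377% of closed windows, the ETS motif CCGGAAG 2.05% and 2.17% against 0.596%, and the NRF1 motif GCGCATGCG, which can match both strands at overlapping places, 0.357% and 0.397% against 0.0235%. The CRE TGACGTCA matched only 25 and 23 sites (0.558% and 0.703%, against 0.103% of closed windows), but those sites were strong, with a median signal of 1.59 and 2.92. Of the CRE matches 76.0% and 47.8% lay under a footprint, and of the NRF1 matches 81.8% and 83.3%. GC content moves with these motifs, and its part in the difference from closed windows was not tested.

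Motifs of neuronal and glial development ranged from frequent to rare. Proneural E-boxes (CAGATG or CAGCTG), bound by basic helix-loop-helix factors, matched 33.1% and 32.7% of sites, against 21.8% of closed windows and 40.0% and 40.6% of other intergenic peaks. The single NFI arm TTGGCA matched 14.2% and 13.5%, against 9.46% of closed windows and 19.9% of other intergenic peaks in both libraries. Both motifs were therefore more frequent in the remaining intergenic peaks than in the upstream sites. Intronic peaks were alike, with 39.3% and 40.0% for E-boxes and 19.3% and 19.6% for the single NFI arm. The complete NFI site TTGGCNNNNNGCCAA, which can contain the single arm, matched 10 and 5 sites (0.223% and 0.153%, against 0.0130% of closed windows). The AP-1 site TGACTCA matched 4.42% and 4.58% (3.32% of closed windows), the RFX site GTTGCCAT 1.43% and 1.44% (0.547%) and the EGR site GCGTGGGCG 9 and 8 sites (0.201% and 0.244%, against 0.00669% of closed windows). The AT-rich homeobox motif TAATTA was less frequent in the sites than in closed windows, at 2.68% and 2.32% against 5.94%, and MEF2 (CTAAAAATA) at 0.312% and 0.244% against 0.444%. SOX (AACAAAGG, 1.21% and 1.16%) and TEAD (ACATTCCA, 0.893% and 0.978%) were near their closed-window shares of 1.20% and 0.947%, and POU (ATGCAAAT) had 0.982% and 1.34% against 1.49%. None of the 14 and 8 MEF2 matches lay under a footprint, and 21.3% and 20.7% of the E-box matches did.

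**Figure D4:**
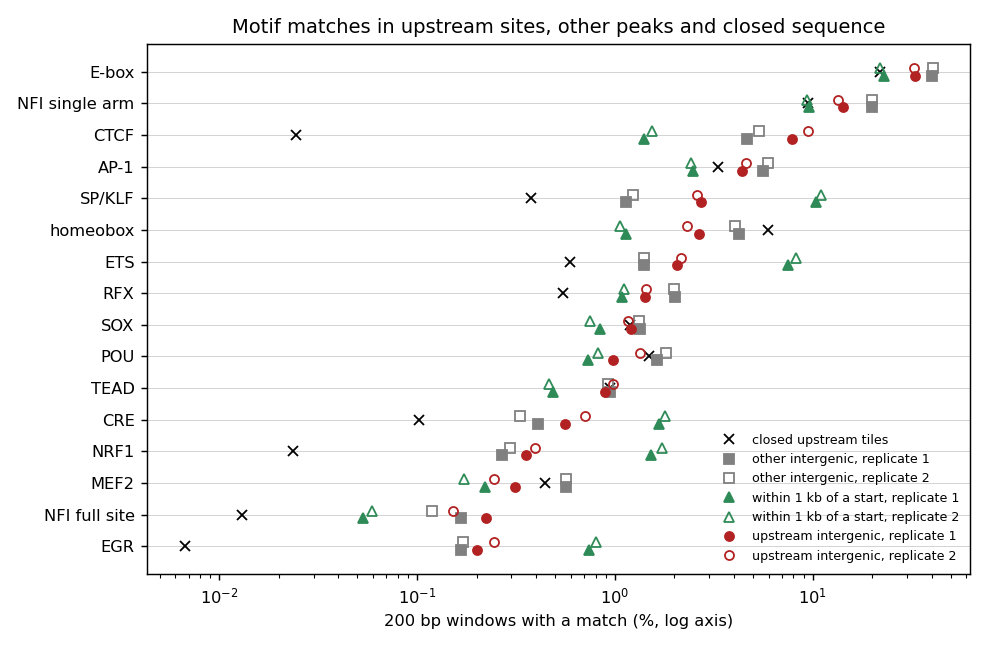
Share of 200 bp windows with at least 1 motif match (horizontal axis, %, log scale) for 16 motifs, in upstream sites (red circles), peaks within 1 kb of a start (green triangles), other intergenic peaks (grey squares) and closed upstream windows (crosses). Filled marks are replicate 1 and open marks replicate 2. CTCF shows the highest ratio between upstream sites (7.83% and 9.54%) and closed windows (0.0245%) among motifs found in over 1% of the sites.

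Most genes had no upstream site. Of 20807 autosomal protein-coding genes, 16247 had sequence that meets the rule, and 3354 (16.1%) had at least 1 site in replicate 1 and 2746 (13.2%) in replicate 2. Exactly 1 site was counted for 2412 and 2136 genes, and 3 or more for 317 (1.52%) and 174 (0.836%). In both libraries at once 126 genes had 3 or more, which is 39.7% of the 317 and 72.4% of the 174. A site was counted for each gene whose window held it, so 456 sites of replicate 1 and 320 of replicate 2 counted for more than 1 gene.

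**Figure D5:**
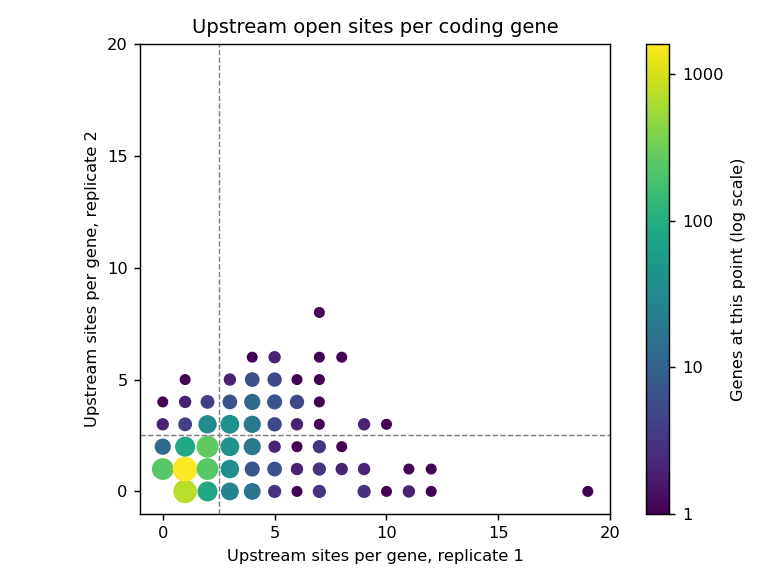
Upstream sites per autosomal protein-coding gene in replicate 1 (horizontal axis) and replicate 2 (vertical axis), for genes with at least 1 site. Colour and size give the number of genes at each point, and the dashed lines separate genes with 3 or more sites. The 126 genes with 3 or more in both lie in the upper right field, and the gene with 19 sites in replicate 1 and 0 in replicate 2 is Aplnr.

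Genes with an open promoter, meaning a peak within 500 bp of any of their transcript starts, had upstream sites more often. Of such genes with eligible sequence, 24.3% had a site in replicate 1 and 19.7% in replicate 2, against 14.1% and 12.4% of genes without an open promoter. Among genes with 3 or more sites the promoter was open for 264 (83.3%) and 141 (81.0%), against 61.1% and 59.2% of eligible genes with no site. The strength of a gene's strongest site did not follow that of its promoter peak: across the 2534 and 1964 genes with both, the Spearman correlation was 0.0447 and 0.0464, and these genes share the library. At 499 (19.7%) and 431 (21.9%) of them the site was the higher of the pair.

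Among genes with 3 or more sites in both libraries, the one with the most by their mean was Tnrc18, whose product carries a bromo-adjacent homology domain, with 7 sites in replicate 1 and 8 in replicate 2 between 1.02 and 6.0 kb upstream (chromosome 5). Signals at Tnrc18 ran from 0.672 to 2.27 and from 0.710 to 2.58, with all 7 sites of replicate 1 and 7 of the 8 of replicate 2 shared, and its promoter peak had 8.69 and 11.4. Here many sites lay behind a promoter peak stronger than any of them. On chromosome 11, Tmem107, the gene of a ciliary membrane protein, had 8 and 6 sites, the strongest of 5.14 and 7.41 at 7.7 kb in both. Aurkb, which encodes a mitotic kinase, had 7 and 6 sites with signals from 1.52 to 4.80 and from 1.94 to 6.43, against 1.98 and 2.31 at its promoter. At Aurkb the upstream sites thus included stronger peaks than the promoter in both libraries.

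At Cirbp 1 site carried most of the signal: of 7 and 5 sites the one at 6.03 kb had 8.99 and 11.3, and the next strongest had 1.59 and 1.83. Mef2d, a transcription factor gene of the MEF2 family, showed the same form, with 9 and 3 sites and 5.78 and 5.27 at 3.91 kb, the others of replicate 1 lying between 0.286 and 0.740. Only 3 of the 9 Mef2d sites in replicate 1 were shared. Actg1, the gene of cytoplasmic gamma actin, had 10 sites in replicate 1 and 3 in replicate 2. The 3 Actg1 sites of replicate 1 that were shared, at 5.16, 9.40 and 9.73 kb, had 1.20, 1.27 and 1.87, and the 7 others had 0.208 to 0.641. Fscn2, which starts at the other side of the same intergenic stretch, counted the same 3 sites of replicate 2.

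Replicate 1 held more sites for several of the 20 named genes, while others had like numbers in both. Akna (6 and 5), Msl1 (5 and 5), Abt1 (5 and 5), Mpzl1 (5 and 5) and D6Ertd527e (5 and 5) were among the even ones, and in replicate 2 all of their sites were shared. Insm1, a zinc-finger gene of newborn neurons, had 5 and 6, and Wnt9a, a WNT ligand gene, had 4 and 6. Sites of Insm1 were weak, with a highest signal of 0.599 and 0.823, and those of Msl1, a subunit gene of a histone acetyltransferase complex, were strong, with 5.50 and 8.41. Kdm6b, the gene of a histone H3 lysine 27 demethylase, had 7 and 4, and Hes7, a gene of the somite clock, 6 and 4 with no promoter peak in either library. Trim27 had 6 and 4, and Dnase1l3 and Abhd6, which diverge from 1 shared stretch, both counted the same 6 and 4.

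A second group of genes had many sites in replicate 1 and none in replicate 2. There were 57 genes with 3 or more in replicate 1 and 0 in replicate 2, and 3 the other way round. The 247 sites of those 57 genes were weak, with a median signal of 0.214 (0.0521 to 1.43), 49.4% held a footprint, and 5 of them had a base listed in the FDR table of replicate 2. At the 126 genes with 3 or more in both, the 460 and 412 sites had a median of 1.02 and 1.44, 87.6% and 80.6% held a footprint and 82.4% and 93.7% were shared. These 126 genes were chosen for sites in both libraries, which favours shared sites, and signal and footprint calls went with sharing. The contrast with the 57 genes therefore follows in part from the choice. Aplnr, the apelin receptor gene, was the extreme, with 19 sites in replicate 1, none above 0.354, and 0 in replicate 2. Tada1 had 12 and 0, and Sh3gl2 12 and 1. In the other direction the differences were smaller: Dagla 1 and 5, Twist1 0 and 4, and Igf2bp3 1 and 4. None of the 247 sites is shared, which follows from how the 57 genes were chosen, so leaving them out must raise the shared share of replicate 1. It was 67.2% of the remaining 4234 sites, and 19.8% in the lowest quintile, still under the 29.7% of other intergenic peaks.

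As a check of the tissue, promoters of excitatory neuron markers were open for 6 of 6 genes in replicate 1 and 4 of 6 in replicate 2, of inhibitory neurons for 5 of 6 in both (Lhx6 had no peak), of astrocytes for 5 and 4 of 5, and of the oligodendrocyte lineage for 4 of 5 in both (Sox10 had none). Microglial markers had 1 of 5 in both, with P2ry12, C1qa, Aif1 and Csf1r at 0, endothelial markers 3 and 1 of 5, and choroid plexus (0 of 2) and other tissues (0 of 4) none. Summed promoter signals were 6.37 and 6.63 for excitatory and 6.30 and 6.44 for inhibitory neuron markers. Those of astrocytes gave 7.82 and 8.97, those of the oligodendrocyte lineage 7.03 and 8.00, and microglial markers 0.505 and 0.507. Markers of neurons, of astrocytes and of the oligodendrocyte lineage thus mostly had open promoters in both libraries, and those of microglia mostly had none.

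Upstream sites were then counted over 13 gene lists. Of all autosomal coding genes, 16.1% and 13.2% had a site and 1.52% and 0.836% had 3 or more, with 44.5 and 32.3 sites per Mb of eligible sequence. Of eligible genes with an open promoter, 24.3% and 19.7% had a site and 2.54% and 1.42% had 3 or more. No list was tested, and the counts describe these libraries only. Genes induced by neuronal activity had the highest share, with 15 and 13 of 21 genes (71.4% and 61.9%) and 275 and 165 sites per Mb. They had 3 or more sites at 6 and 3 genes (28.6% and 14.3%). All 21 had an open promoter in both libraries. Junb and Egr1, immediate early transcription factor genes, had 6 sites in replicate 1 and 3 in replicate 2 each, and Egr3 had 3 and 4. Of the 6 sites in replicate 1, 3 were shared at Junb and 4 at Egr1. The strongest Junb site, 3.98 and 4.98, carries the RFX match and is also counted for Hook2. Genes of newborn neurons and proneural factors followed, with 10 and 9 of 19 genes. There Sox4 had 4 and 5 sites with 6.09 and 7.53 at the strongest, and Neurog2, a proneural factor gene, had 9 in replicate 1, of which 1 was shared, and 1 in replicate 2. Of the broad cortical factors including the NFI family 6 and 5 of 20 genes had a site, and 4 in each library had 3 or more. Those with 3 or more in both were Nfic (6 and 4 sites, none above 0.396 and 0.541), Id2 (4 and 5, up to 3.86 and 4.49) and Bhlhe22 (4 and 5, up to 1.20 and 1.83).

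Like every other list but that of genes of other organs, the neuron type lists lay above the share of all genes in both libraries. Most of their genes had an open promoter, and of all eligible genes with an open promoter 24.3% and 19.7% had a site. Synaptic genes held few sites each. Of excitatory neuron genes 8 and 8 of 20 had a site, among them Foxp2 (4 and 3), Camk2a (2 and 2) and Neurod2 (2 and 1). Inhibitory neuron genes had 9 and 6 of 23, among them Gad2, a GABA synthesis gene, with 3 and 4 sites up to 0.635 and 0.609, and Sst, the somatostatin gene, with 3 and 2 up to 2.26 and 2.58 and no promoter peak in either library. Calb2 had 2 and 2. Synaptic genes had 6 and 6 of 21, with 41.0 and 47.8 sites per Mb and none with 3 or more. Snap25, Stx1a and Syn2 had 1 or 2 each, of which the Stx1a site was the strongest at 3.17 and 5.22. All 21 synaptic genes had an open promoter in replicate 1 and 20 in replicate 2. Their share with a site, 28.6% in both libraries, was above that of all eligible genes with an open promoter. Those genes had 55.3 and 39.5 sites per Mb, so the synaptic density was lower in replicate 1 and higher in replicate 2. Only 2.54% and 1.42% of those genes had 3 or more sites.

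In the glial lists, some oligodendrocyte and microglial genes had sites without a promoter peak, as some genes of other lists did. Over all eligible genes without an open promoter, 14.1% and 12.4% had a site. Astrocyte promoters were open for 18 of 18 genes in replicate 1 and for 16 in replicate 2. Astrocyte genes had a site at 7 and 6 of 18, among them Aldh1l1 (3 and 3), Hepacam (2 and 2) and Apoe (1 and 1, with 1.64 and 1.94). Oligodendrocyte genes had 7 and 5 of 17, among them Cldn11 and Myrf, with 2 and 1 each. Mog, a myelin protein gene, had no promoter peak in either library and 1 upstream site of 5.22 and 6.19. Microglial genes had a site at 8 and 6 of 16 while 7 and 5 promoters were open, among them Sall1 (2 and 1) and Trem2, with 1 site of 2.16 and 2.55 and no promoter peak. Which cells these sites were open in was not tested. Endothelial and mural genes had 4 and 4 of 19, among them Sox18 (2 and 2), Foxc1 (2 and 1) and Slc2a1 (1 and 2).

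The remaining lists give the range. Housekeeping genes had a site at 7 and 6 of 16 and 269 and 161 sites per Mb, among them Ppia (8 and 2, of which 2 were shared) and Eef2 (4 and 3, up to 3.03 and 4.0). Genes of other organs had the lowest share, 3 of 22 in both libraries: Sftpc (1.68 and 2.84), Fgb (0.599 and 0.620) and Alb (0.245 and 0.372), each with 1 site and no promoter peak. Hox genes, which lie close together so that windows share sites, had 10 and 8 of 38 with an upstream site while 7 and 5 promoters were open. Hoxd13 had 2 and 2, and Hoxb7 and Hoxb8 counted 1 site of 2.16 and 2.47 together.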

How the data were processed

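Open chromatin was measured by DNase-seq in 2 libraries of 1 group. Per the text records deposited with the files, peaks, footprints and cut-rate tables were made for each library from filtered alignments in mm10 coordinates. No source used here gives the aligner, callers or thresholds, and read totals were not analysed here, so depth is unknown. The peak signal in column 7 is the authors' value, and its scaling is not stated. It was used to describe sites within a library, and named sites were ranked by the plain mean of both libraries, whose scales differ. The FDR of the local cut rate, a p-value type of measure, is the authors' and is listed up to 0.05. The p-value column deposited with footprints held 0.01 in all rows, so footprints were used by position only.

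The longer peak list of each library was used. Peaks were placed by their centre against GENCODE M21, with sequence from GRCm38.p6, whose chromosome lengths fit mm10. Sharing and footprints needed an overlap of 1 bp. Each site counted for every coding gene whose window held it. Motifs were searched in windows of 200 bp, and a match was under a footprint if 0.5 of it was covered. Values were given per library and no test was run, since 2 libraries of 1 group give none.

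Named were the 10 strongest sites paired 1 to 1 between the libraries, the 20 genes with most sites among those with 3 or more in both libraries, up to 3 genes of each of 13 lists, the 3 genes that differed most in each direction between libraries, the 5 sites with most footprints and the strongest paired site for each of the 16 motifs with a match under a footprint in both libraries. Some genes that this rule names are not reported here. The members, lists and motifs were chosen with earlier results of these data known. Overlap and position code was tested on simulated intervals. Python 3.11.15 with numpy 2.4.6, pandas 2.3.3 and matplotlib 3.10.9 was used. Alternatives covered the peak list, windows, overlap, footprint rule and repeats.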

Additional observations from a re-analysis of the deposited data

How the results depend on the processing

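Values here are means of the 2 libraries, and the range over leaving out either library is the pair of single values. The count of sites was 3876.5 (3272 to 4481), and became 2333.5 with the shorter peak list, 2237 with the strongest 50% of peaks, 2249.5 with a window of 1 to 5 kb and 6252.5 with 1 to 20 kb. The share of autosomal peaks was 4.26% (4.11% to 4.40%), with 4.91% for the strongest 50%, 2.47% and 6.88% for those windows, 3.20% at over 2 kb from transcript starts, 3.20% for shared sites only and 4.04% without mostly repetitive sites. The median signal was 0.880 (0.677 to 1.08), with 1.35 in the shorter list and 1.40 in the strongest 50%. The share with a footprint was 82.6% (79.6% to 85.6%), with 91.7% in the shorter list, 96.9% in the strongest 50% and 90.1% for shared sites. Genes with 3 or more sites numbered 245.5 (174 to 317), with 106.5 in the shorter list, 103.5 in the strongest 50%, 98.5 at 1 to 5 kb, 582.5 at 1 to 20 kb and 123.5 from shared sites. These alternatives change which peaks enter, by their construction. The share of sites found in both libraries was 75.4% (63.5% to 87.3%), with an SD of 16.9 points between the libraries. It moved by less than this SD under its 12 alternatives, which include 50% reciprocal overlap at 65.0% and equal peak numbers at 78.8%. The SD is wide, and leaving out either library, also among the 12, cannot exceed it, so staying within it says little. With equal peak numbers the libraries had 74.3% and 83.4% of sites shared, 3649 and 3272 sites and 217 and 174 genes with 3 or more. Shared sites only, sites without repeats and counting each site for its nearest gene were alternatives chosen after seeing the data. No paired analysis was possible because there is 1 group only. Depth is unknown, so how far it limits the sharing cannot be given.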

Other observations

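The same rule applied to the X chromosome, which the set leaves out, gave 98 sites in replicate 1 and 55 in replicate 2, or 3.47% and 2.60% of the peaks there, against 4.40% and 4.11% of autosomal peaks.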
